A study of Sus scrofa with 30 samples.

Results

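The genes described here are 9 lymphocyte marker genes of the sow mammary gland: PTPRC, CD2, CD3D, CD3E, CD4, CD8A, LCK, CD79A and CD79B. They were taken by name from the transcript table of the series, and all 9 were present, with 14 of its 61773 transcripts. Each gene is given as the sum of its annotated transcripts in the table. In all, 26012 genes and assembled loci were tested together, of which 14951 were annotated genes. Assembled transcripts were kept apart from these sums. The table held 2 of 5 annotated transcripts of CD4, 3 of 7 of CD8A and 2 of 3 of LCK. Whether reads of a marker lay on missing or assembled transcripts was not tested. Mammary tissue came from Danish Landrace × Yorkshire crossbred sows that had farrowed before and were half-siblings, with 6 samples at each of 5 stages. The stages were mid-gestation on day 70 of gestation (MG), late gestation on day 110 of gestation (LG), early lactation, 2 days postpartum (EL), peak lactation, 10 days postpartum (PL), and 2 days past weaning (W2). No treatment separated the groups, and the pieces of tissue held every cell type of the gland. In such bulk tissue, fewer lymphocytes and less RNA per lymphocyte cannot be told apart.

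Lymphocytes recognise antigen through receptors that signal through attached chains. CD3D and CD3E are signalling chains of the T cell receptor, LCK is the kinase that starts its signal, and CD4 and CD8A are the co-receptors of helper and cytotoxic T cells. CD79A and CD79B are the signalling chains of the B cell receptor, CD2 is an adhesion molecule of T and NK cells, and PTPRC (CD45) is a phosphatase found on all leukocytes. In the mammary gland, T cells lie in and below the epithelium, and B lineage cells supply antibody to colostrum and milk.

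Several properties of the samples bear on every value. In each stage, 3 of the 6 columns differed from each other by at most 1.85% at the median transcript, and the averages of these 3 and of the remaining 3 lay 0.689% to 0.741% apart. Those 15 near-copies were not counted, so n = 3 per stage. The counted samples were MG 1, 3 and 6, LG 1, 3 and 4, EL 3, 4 and 6, PL 2, 3 and 6, and W2 2, 3 and 6, and values below are listed in that order. The samples titled EL carried the name of mid-gestation in a second label, and those titled MG the name of early lactation. The titles were followed here. The summed level of 6 milk protein genes was 1.19% to 2.95% of the total in the samples titled MG and 6.39% to 12.1% in those titled EL. Each column summed to between 997480 and 1002643, so a level, called units here, is a share of the sample and not a count, and the table carries no read depth. PL 2 stood apart, with 34065 transcripts above 0 against 39524 to 46114 in the other counted samples, and with 28.5% of its total in the 6 milk protein genes.

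The plot of levels by sample gives all 9 genes. The T cell genes CD2, CD3D, CD3E and LCK were highest at MG and lowest at PL, and their W2 means were above those of LG except for CD2 (4.83 against 5.00 units). CD4 had the same highest and lowest stage with a wide spread, CD8A was high in some samples of every stage except PL, and both B cell receptor chains were highest at MG. PTPRC followed none of these patterns. Below, neighbours are stages next to each other in the order of a gene's own means. The share of all genes whose neighbouring stages did not overlap is not given here. Statements on overlap therefore describe the samples and are not a result about the markers.

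**Figure D1:**
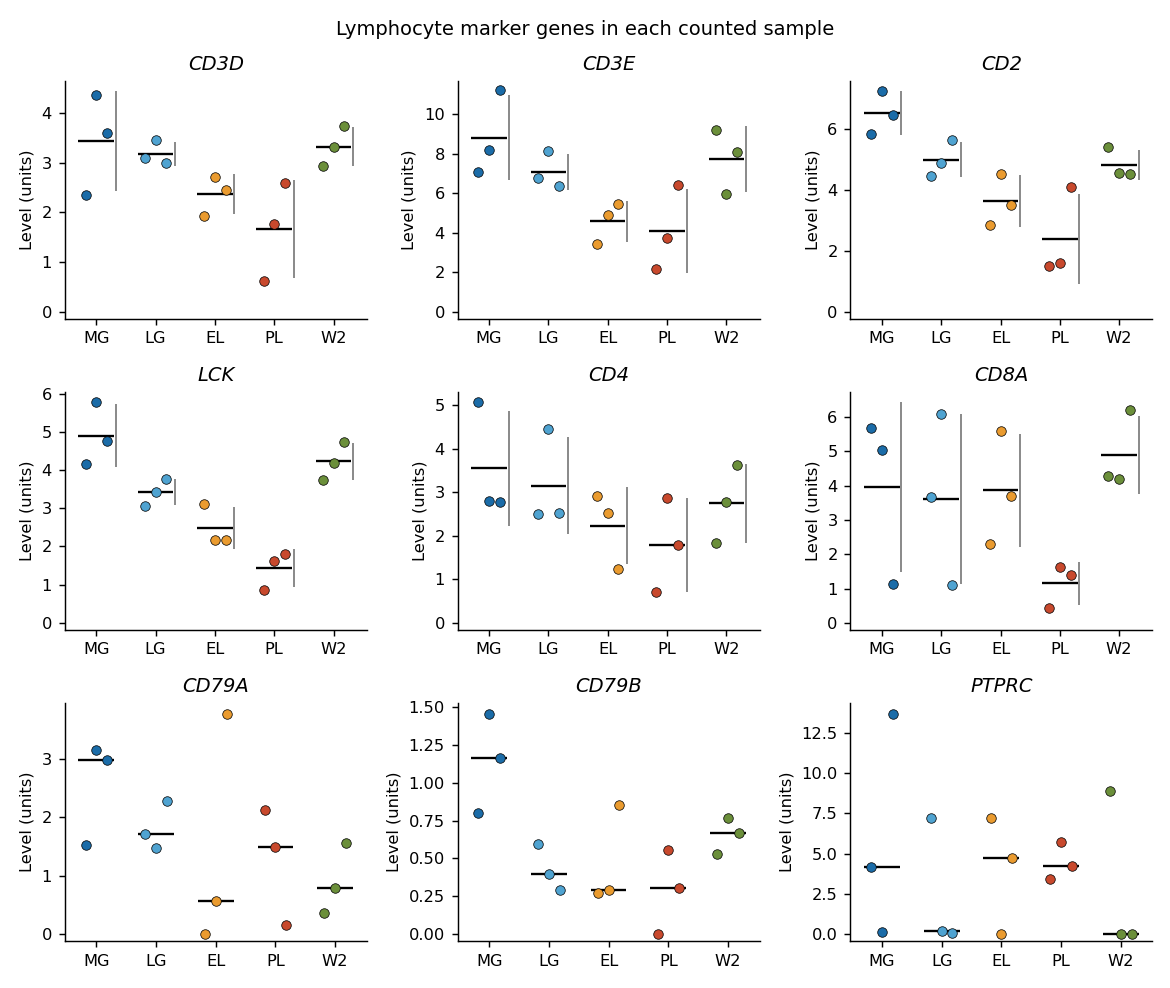
Level of each gene (units, linear axis) in the 15 counted samples, 3 per stage, for MG, LG, EL, PL and W2. Bars are stage means with the SD (n = 3) at their right, and medians without an SD for CD79A, CD79B and PTPRC, which were listed at 0 in a sample. The 3 PL samples of LCK (0.865 to 1.79 units) lie below the other 12.

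LCK gave the clearest separation of PL from the other stages. Its level was 4.15, 5.79 and 4.77 units at MG, 3.07, 3.43 and 3.77 at LG, 3.11, 2.17 and 2.18 at EL, 0.865, 1.63 and 1.79 at PL, and 3.75, 4.18 and 4.74 at W2. All 3 PL samples were below every sample of the other stages. In addition, 5 of the 6 lactation samples (EL and PL) were below every gestation sample (MG and LG), which also held for CD2 and CD3E. The stage means ran from 4.91 ± 0.83 (SD, n = 3) at MG through W2, LG and EL to 1.43 ± 0.50 at PL, and only EL and PL, among neighbours in this order, did not overlap.

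CD2 was 5.83, 7.26 and 6.47 units at MG, 4.47, 4.89 and 5.63 at LG, 2.84, 4.53 and 3.51 at EL, 1.49, 1.59 and 4.10 at PL, and 5.41, 4.56 and 4.53 at W2. The samples of MG lay above those of LG without overlap, and so did those of W2 above those of EL, while PL overlapped with EL through PL 6. In limma neither LG vs MG (log2 fold change -0.35, SE 0.30) nor W2 vs EL (0.39, SE 0.30) passed for CD2. Its mean fell from 6.52 ± 0.72 at MG to 2.40 ± 1.5 at PL.

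CD3E had the highest mean of the 9 genes over the 15 samples, at 6.47 units. It was 7.06, 8.19 and 11.2 at MG, 6.77, 8.13 and 6.37 at LG, 3.44, 4.88 and 5.45 at EL, 2.16, 3.72 and 6.40 at PL, and 9.22, 5.94 and 8.08 at W2. Only LG and EL, as neighbours, did not overlap, and PL 6 reached the lower gestation values. CD3D, its partner chain, lies beside CD3E on chromosome 9 (45640475 to 45644153 and 45619730 to 45633972, Sscrofa11.1). It was 2.36, 4.36 and 3.60 units at MG, 3.10, 3.45 and 2.99 at LG, 1.92, 2.72 and 2.45 at EL, 0.627, 1.77 and 2.58 at PL, and 2.93, 3.31 and 3.73 at W2. As for CD3E, LG and EL were the neighbours without overlap.

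The co-receptors varied more within a stage. CD4 was 5.08, 2.80 and 2.77 units at MG, 2.50, 4.45 and 2.51 at LG, 2.92, 2.53 and 1.24 at EL, 0.704, 2.87 and 1.78 at PL, and 1.82, 2.78 and 3.62 at W2. All neighbouring stages overlapped. CD8A was 5.68, 5.04 and 1.13 units at MG, 3.67, 6.07 and 1.12 at LG, 2.28, 5.58 and 3.71 at EL, 0.434, 1.63 and 1.39 at PL, and 4.28, 4.18 and 6.19 at W2. Its PL samples lay below all those of EL and W2, but MG 6 and LG 4 were as low as PL.

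The B cell receptor chains were low throughout. CD79A was 1.52, 3.16 and 2.98 units at MG, 1.71, 1.48 and 2.27 at LG, listed at 0 in EL 3, 0.563 and 3.77 in EL 4 and EL 6, 2.13, 1.49 and 0.161 at PL, and 0.358, 0.782 and 1.56 at W2. Every stage overlapped with its neighbours, and the highest of the 15 values was an EL sample. CD79B was 0.802, 1.45 and 1.17 units at MG, 0.599, 0.396 and 0.290 at LG, 0.274, 0.290 and 0.851 at EL, listed at 0 in PL 2, 0.554 and 0.304 in PL 3 and PL 6, and 0.531, 0.770 and 0.666 at W2. The MG samples lay above those of W2, the next stage, without overlap.

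PTPRC was either present or almost absent. It was 4.16, 0.118 and 13.7 units at MG, 7.24, 0.174 and 0.0427 at LG, 7.22, 0 and 4.70 at EL, 3.39, 5.75 and 4.24 at PL, and 8.92, 0.0008 and 0.0237 at W2. In 6 samples it was at most 0.174 units and in the other 9 at least 3.39 units, and samples of both kinds occurred in every stage but PL. The table holds 1 PTPRC transcript, listed at exactly 0 in EL 4 alone. PABPC1, a gene used by every cell, was listed at 0 in 3 of the 15 samples. Whether the low PTPRC values are failed estimates was not tested.

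Other genes of leukocytes did not share this split. In the 6 samples with almost no PTPRC, CD53, a membrane protein of leukocytes, had a median of 14.4 units against 11.2 in the other 9, and CORO1A, an actin regulator of leukocytes, 12.7 against 9.56. LCP1, the leukocyte plastin, was at 101 against 83.6 units, and CD3E at 7.23 against 6.40. None of the 6 was a PL sample, and each of these genes had its lowest mean at PL (7.40 units for CD53). The medians were not adjusted for stage. Of the 20 pan-leukocyte genes on a fixed list, FERMT3 was listed at 0 in 2 samples, ITGB2 and SELPLG in 1 each, and the others in none. ITGB2 had near-zero values as well, with 0 in MG 1, 0.0561 units in PL 2 and 0.291 in PL 6, against 2.68 or more elsewhere.

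**Figure D2:**
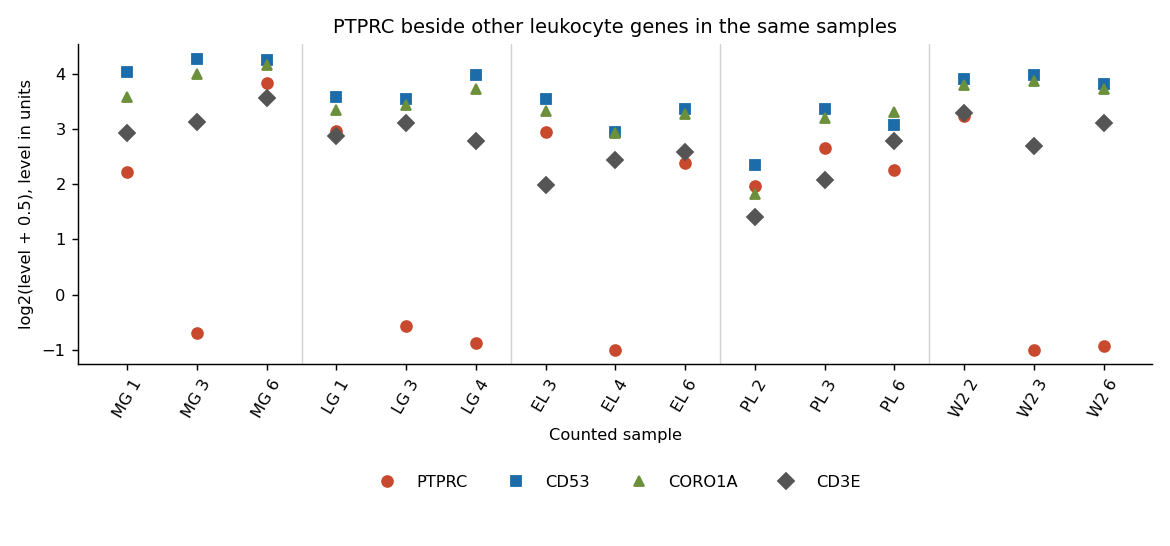
Level of PTPRC, CD53, CORO1A and CD3E as log2(units + 0.5) in each of the 15 counted samples, ordered by stage, with vertical lines between stages. PTPRC drops to the floor of the scale in 6 samples (at most 0.174 units) in which the other 3 genes keep their level.

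The first comparison set lactation (EL and PL, 6 samples) against gestation (MG and LG, 6 samples). CD2, CD3E and LCK fell, 8 of the 9 genes had lower values, and none passed the study's rule of an adjusted p below 0.05 with a log2 fold change of at least 2. The log2 fold changes were -0.96 ± 0.18 (SE) for LCK (limma adjusted p = 0.00465), -0.91 ± 0.21 for CD2 (limma adjusted p = 0.0134) and -0.85 ± 0.23 for CD3E (limma adjusted p = 0.0248). CD3D had a value of -0.66 ± 0.24 (limma adjusted p = 0.0679), CD4 -0.67 ± 0.30 and CD8A -0.53 ± 0.42. CD79A was at -0.89 ± 0.50, CD79B at -0.54 ± 0.24 and PTPRC at 0.72 ± 1.1, with limma adjusted p between 0.12 and 0.643 for these and for CD4 and CD8A.

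This count has to be read against all genes. Lower values with an adjusted p below 0.05 were found for 3 of the 9 markers and for 19.3% of the 26012 genes and loci. The median log2 fold change was -0.67 over the markers and -0.40 over all genes. The 6 milk protein genes held 1.19% to 5.93% of the total in the gestation samples and 6.39% to 28.5% in the lactation samples, and their part in this shift was not tested. With samples scaled by the median ratio of well expressed transcripts, the median of all genes was -0.08 and that of the markers -0.39. On that scale LCK fell by 0.63 on the log2 scale (SE 0.12, limma adjusted p = 0.0109), beside 4.36% of all genes lower, while CD2 (-0.55, limma adjusted p = 0.135) and CD3E (-0.47, limma adjusted p = 0.213) no longer passed.

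Exact permutation of the 12 samples of each gene, two-sided and not adjusted, gave p = 0.0043 for CD2, CD3E and LCK and p = 0.0087 for CD3D. For the other 5 genes the exact p was between 0.0671 (CD4) and 0.511 (PTPRC). The 4 genes with an exact p below 0.05 stood beside 34.9% of all genes. After median ratio scaling the exact p was 0.0022 for LCK, 0.0303 for CD2, 0.0476 for CD3E and 0.126 for CD3D, beside 18.3% of all genes below 0.05. The size of these differences and the calls rest on the titles. With the second labels of the MG and EL samples in their place, 0 of the 9 genes passed in the limma fit, against 0.227% of all genes lower, and LCK was at -0.10.

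**Figure D3:**
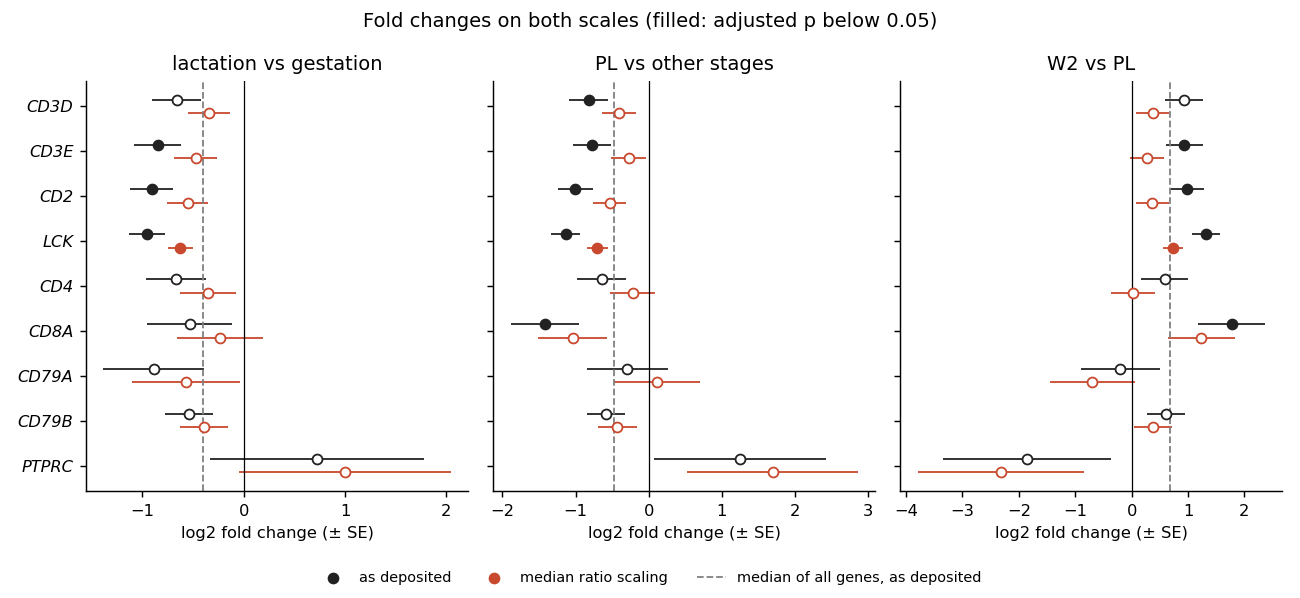
Log2 fold change (± SE) of the 9 genes in lactation vs gestation, PL vs the mean of the other stages, and W2 vs PL, as deposited (black) and after median ratio scaling (red), with filled points where the limma adjusted p is below 0.05. Dashed lines mark the median of all genes as deposited (-0.40, -0.47 and 0.68), and LCK is the gene filled on both scales in all 3 panels.

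Peak lactation was the lowest stage for 7 of the 9 genes. Against the mean of the other 4 stages, 5 genes fell: LCK by 1.14 ± 0.20 (limma adjusted p = 0.00146), CD2 by 1.00 ± 0.24 (limma adjusted p = 0.00824), CD8A by 1.42 ± 0.47 (limma adjusted p = 0.0384), CD3D by 0.82 ± 0.27 (limma adjusted p = 0.0356) and CD3E by 0.77 ± 0.26 on the log2 scale (limma adjusted p = 0.0396). Of all genes, 27.3% were lower in this contrast, and their median was -0.47 beside -0.77 for the markers. The exact permutation p (3 samples against 12, two-sided, not adjusted) was 0.0022 for LCK, which is the smallest this design gives, 0.0066 for CD2, 0.011 for CD3D, 0.0132 for CD8A and 0.0264 for CD3E, with 38.8% of all genes below 0.05 in the same test.

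After median ratio scaling LCK alone of the 9 genes passed (-0.70 ± 0.14, limma adjusted p = 0.0049, with 8.97% of all genes lower). CD8A kept a value of -1.04 ± 0.47 (limma adjusted p = 0.165), the most negative of the 9 on that scale. Without PL 2, whose levels were the lowest of the 15 for CD2, CD3D, CD3E, CD4, CD8A, LCK and CD79B, CD2 and LCK passed as deposited, beside 16.6% of all genes. The count was also 2 without MG 3, LG 3, EL 6 or W2 6, beside 24.5% to 25.7% of all genes. Over the 15 fits with 1 sample left out CD2 and LCK passed in all, CD3D in 7, and CD3E and CD8A in 4 each.

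Single stages were then compared, in 10 pairs that share samples. In PL vs MG, CD2 (-1.39 ± 0.30, limma adjusted p = 0.00676), LCK (-1.51 ± 0.25, limma adjusted p = 0.00159), CD3E (-1.11 ± 0.33, limma adjusted p = 0.0281) and CD79B (-1.11 ± 0.34, limma adjusted p = 0.0306) fell, beside 23.0% of all genes. In PL vs LG, CD2 (-1.03 ± 0.30, limma adjusted p = 0.0393) and LCK (-1.05 ± 0.25, limma adjusted p = 0.0163) fell, beside 13.1% of all genes. With median ratio scaling LCK was the gene left in both comparisons, beside 5.86% and 5.19% of all genes. Without PL 2, CD2 and LCK were called in PL vs MG, beside 16.7% of all genes, and LCK in PL vs LG, beside 9.18%. With the second labels in place of the titles 0 of the 9 genes were called in PL vs MG, beside 3.85% of all genes. Fitted on the compared stages alone, 0 of the 9 genes passed in PL vs MG, beside 6.08% of all genes, and 0 in PL vs LG, beside 2.21%. No marker reached a log2 fold change of 2 with an adjusted p below 0.05 in any of the 10 pairs, where the share of all genes called by that rule ran from 0.0115% (LG vs MG) to 5.22% (W2 vs PL).

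In the other 7 pairs no marker passed at an adjusted p below 0.05. At an unadjusted limma p below 0.05, 4 of the 9 genes were found in EL vs MG, beside 15.9% of all genes, and 2 in PL vs EL, beside 19.0%. There was 1 in LG vs MG, beside 4.43%, and 1 in W2 vs EL, beside 25.1%. There were 0 in W2 vs MG, EL vs LG and W2 vs LG, where 3.09%, 6.19% and 7.57% of all genes were found. A pair of stages with 3 samples each cannot give an exact two-sided p below 0.10. Over all 5 stages, the limma F test passed for LCK (adjusted p = 0.00737) and CD2 (adjusted p = 0.0387), beside 18.3% of all genes.

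After weaning, 4 of the markers rose in the fit over all 5 stages, and 0 passed in a fit on PL and W2 alone, where 10.4% of all genes were higher. From PL to W2, LCK rose by 1.32 ± 0.25 (limma adjusted p = 0.00242), CD8A by 1.77 ± 0.60 (limma adjusted p = 0.0379), CD2 by 0.99 ± 0.30 (limma adjusted p = 0.0252) and CD3E by 0.93 ± 0.33 on the log2 scale (limma adjusted p = 0.0454). CD3D had a value of 0.94 ± 0.34 (limma adjusted p = 0.0505), CD79B 0.62 ± 0.34 and CD4 0.59 ± 0.42. CD79A (-0.20 ± 0.70) and PTPRC (-1.85 ± 1.5) had lower values at W2. Among all genes 30.4% were higher, with a median of 0.68 beside 0.93 for the markers. After median ratio scaling the markers' median was 0.37 and LCK passed (0.74 ± 0.18, limma adjusted p = 0.0158), beside 7.67% of all genes higher. Without PL 2, LCK was the marker that passed, beside 22.9% of all genes. The same held without W2 2, beside 25.5%, and without W2 6, beside 22.1%. The summed share of the 6 milk protein genes was 9.12% to 28.5% at PL and 0.578% to 0.814% at W2, and its part in these differences beyond the scaling was not tested.

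Ratios between markers within a sample were taken as differences of log2(units + 0.5) and are given with no test. The added 0.5 draws ratios of low levels toward 0. On this scale CD4 relative to CD8A was 0.37, 0.67 and 0.27 at PL and -1.04, -0.51 and -0.70 at W2, so CD4 was the higher in all PL samples and CD8A in all W2 samples. At MG, LG and EL the ratio took both signs (from -1.28 in EL 6 to 1.01 in MG 6). Without the added 0.5 the ratio was 0.70, 0.82 and 0.36 at PL and -1.23, -0.59 and -0.78 at W2. The transcript that held 81% of CD8A over the samples was listed at 0 in every PL sample. In PL 2 and PL 6 all of CD8A lay on a non-coding transcript. The part of the assignment to transcripts in these signs was not tested. The chains CD79A and CD79B relative to CD3D and CD3E had a mean ratio of -1.44 ± 0.14 at MG, -1.86 ± 0.24 at LG, -1.77 ± 0.84 at EL, -1.45 ± 1.1 at PL and -2.18 ± 0.38 at W2 (SD, n = 3). All 3 W2 values (-2.62, -1.96 and -1.96) were below all 3 MG values (-1.52, -1.28 and -1.53), as they were without the added 0.5 (-3.58, -2.52 and -2.43 against -1.88, -1.48 and -1.77). The ratio of CD3E to CD2 was narrower, between 0.10 and 1.02 over the 15 samples, and that of CD3E to CD3D lay between 0.70 and 1.52.

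Over the 15 samples, which share 5 stages and a fixed total, the log2 levels of CD2, CD3D, CD3E and LCK had a Pearson r of 0.80 to 0.88 with each other in 6 pairs. After median ratio scaling r was 0.50 to 0.76, and within stages, with stage means removed, 0.34 to 0.78. PTPRC had an r of -0.41 to 0.01 with the other 8 genes, and CD79A with CD79B 0.44. These values are descriptions of the same libraries and carry no test.

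The levels of CD4, CD8A, LCK and CD79B are sums of several annotated transcripts, and single samples placed most of the gene on different ones. CD8A was carried by NM_001001907.1 (81% of the gene over the samples), which every PL sample listed at 0, as did LG 4 and EL 3. In PL 2 and PL 6 all of CD8A, and in LG 4 all of it too, lay on XR_002342155.1, a transcript whose accession marks it as non-coding, at 0.434, 1.39 and 1.12 units. PL 3 and EL 3 had 1.50 and 2.28 units on XM_021085821.1.

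For CD4, XM_005652590.3 held 69% and XM_021091198.1 31%. The second carried all of CD4 in MG 1 (5.08 units), EL 3 (2.92) and PL 3 (2.87), where the first was at 0, and was at 0 itself in 9 samples. For LCK, XM_021093252.1 held 76% and was at 0 in EL 3 and W2 6, where XM_021093253.1 held 3.11 and 4.74 units. For CD79B, XM_021066088.1 held 57% and NM_001243912.1 43%. PTPRC, CD2, CD3D, CD3E and CD79A each had 1 transcript in the table.

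**Figure D4:**
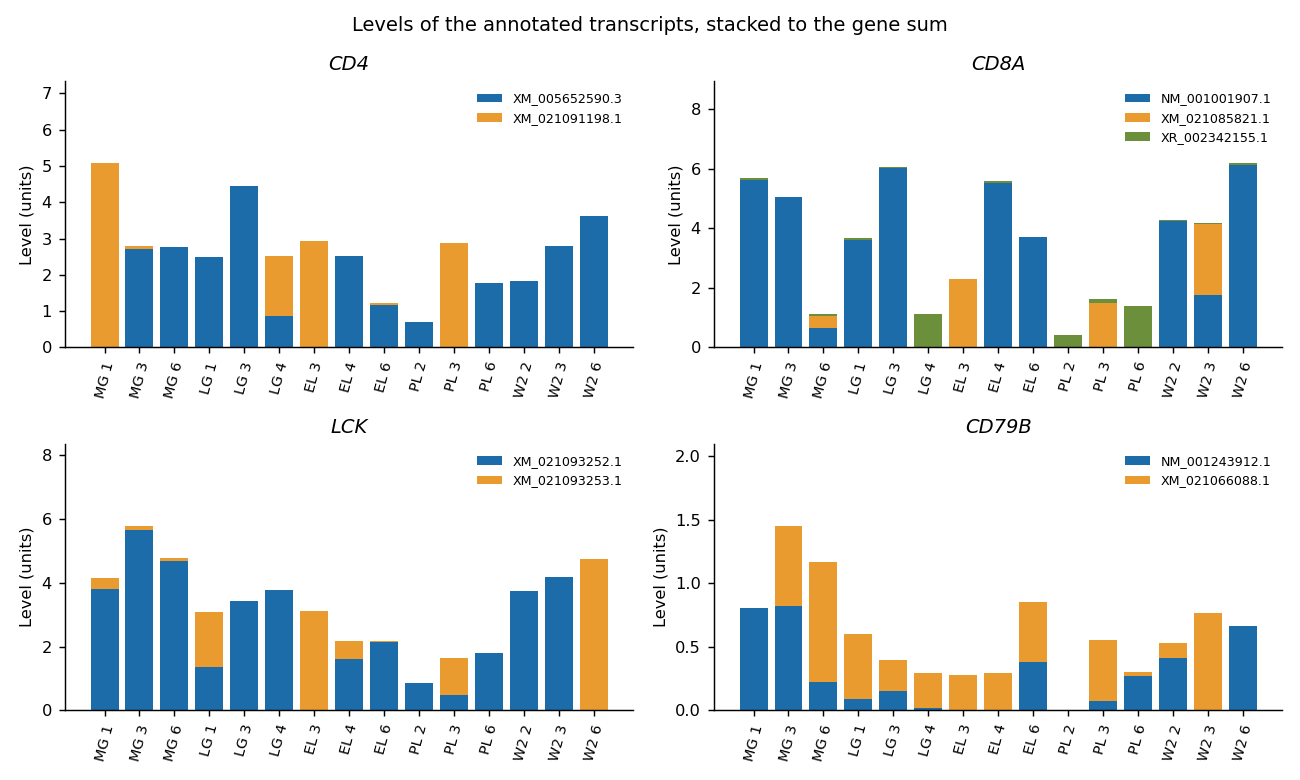
Level of each annotated transcript (units), stacked to the sum of its gene, for CD4, CD8A, LCK and CD79B in the 15 counted samples. Colours change between samples of the same stage, as for LCK between W2 3 (all on XM_021093252.1) and W2 6 (all on XM_021093253.1).

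With transcripts tested singly over 61773 rows, NM_213776.1 of CD2 passed in PL vs MG (limma adjusted p = 0.0388) and in PL vs the other stages (limma adjusted p = 0.0427), and none of the other 13 passed in any contrast. LCK was therefore called on the sum of its transcripts and not on either alone. With the highest transcript in place of the sum, LCK had a value of -1.49 in lactation vs gestation, -0.86 in PL vs the other stages and 0.56 in W2 vs PL, and did not pass.

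Other genes of the T cell receptor pathway were in the table for 22 of 29 on a fixed list. In lactation vs gestation all 22 had lower values and 4 passed, beside the 19.3% of all genes called lower. The 4 were CD3G, the third CD3 chain (-0.82, limma adjusted p = 0.0142), CD40LG, the helper T cell signal to B cells (-0.69, limma adjusted p = 0.0313), IL2RB, a chain of the interleukin 2 receptor (-0.69, limma adjusted p = 0.0333), and SIT1, an adaptor of T cell signalling (-1.01, limma adjusted p = 0.0326). The median over the 22 was -0.50 as deposited and -0.28 after scaling, where none passed, beside 4.36% of all genes lower. Abundant genes of the list were IL2RG (6.44 units), CD3G (5.28) and IL2RB (3.48), of which IL2RG did not pass (-0.44).

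Of 20 B cell genes 14 were in the table, and 5 fell in lactation vs gestation beside the 2 CD79 chains, which did not pass, against 19.3% of all genes as deposited and 4.36% after scaling. These were BLNK, the adaptor below the B cell receptor (-2.10, limma adjusted p = 0.00253), BANK1, a scaffold of B cell signalling (-1.49, limma adjusted p = 0.0101), EBF1, a transcription factor of early B cells that stromal cells and adipocytes also express (-1.09, limma adjusted p = 0.00186), FCRLA (-0.84, limma adjusted p = 0.00949) and the kinase BTK (-0.79, limma adjusted p = 0.0196). After median ratio scaling BLNK (-1.89), BANK1 (-1.21), EBF1 (-0.73) and FCRLA (-0.56) still passed, with a median of -0.32 over the 14 genes. CD40, BCL11A and LYN, the other most abundant, had values of 0.02, -0.60 and -0.39 as deposited and did not pass.

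Of 12 plasma cell genes 10 had lower values. CD38 (-0.54, limma adjusted p = 0.0447) and PRDM1 (-0.96, limma adjusted p = 0.0274) fell in lactation and DERL3, a protein of endoplasmic reticulum quality control, rose (0.80, limma adjusted p = 0.0356), beside 19.3% of all genes lower and 1.57% higher. After scaling CD38 (-0.25, limma adjusted p = 0.425) and PRDM1 (-0.64, limma adjusted p = 0.149) no longer passed, beside 4.36% of all genes lower. DERL3 passed on that scale (1.19, limma adjusted p = 0.0386), beside 3.11% of all genes higher. The median over the 12 was -0.35 as deposited, beside -0.40 for all genes, and 0.03 after scaling, beside -0.08. JCHAIN, which joins secreted antibodies, was the most abundant with a mean of 1528 units at MG (670 to 2838), 832 at LG, 1079 at EL, 814 at PL and 554 at W2, and did not pass in lactation vs gestation (-0.18) or in W2 vs PL (-0.62). XBP1 (772 units over the samples) and FKBP11 (86.0), which secretory epithelium also expresses, and TXNDC5 (27.9) did not pass either.

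Genes of NK and cytotoxic T cells were in the table for 16 of 18, and all 16 had lower values in lactation. NKG7 (-0.89, limma adjusted p = 0.00389), KLRK1 (-1.07, limma adjusted p = 0.035), CTSW (-0.73, limma adjusted p = 0.0491) and PRF1, the pore former perforin (-0.66, limma adjusted p = 0.0245), passed, which is 4 of 16 beside 19.3% of all genes. Of the 16, NKG7 alone passed after scaling (-0.52, limma adjusted p = 0.0495), beside 4.36% of all genes lower. CCL5 and XCL1, the other most abundant, were at -0.72 and -0.59 and did not pass.

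Of the 20 pan-leukocyte genes, 11 fell in lactation: CORO1A, LAPTM5, CD53, CD48, CD37, LCP1, ARHGDIB, DOCK2, PTPN6, HCLS1 and LCP2, by 0.64 to 1.06 on the log2 scale, beside the 19.3% of all genes. The median over the 20 was -0.74 as deposited and -0.36 after scaling. On the scaled levels CD37, CD53 and HCLS1 were still lower, beside 4.36% of all genes. VAV1 was higher (0.89, limma adjusted p = 0.00243), beside 3.11% of all genes. RAC2, among the 4 most abundant, did not pass (-0.59).

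Among 14 genes of lymphocyte homing in the table, CXCL13, the chemokine that draws B cells, had the most negative value of the 14 in lactation (-2.37, limma adjusted p = 0.00883). It was 15.8, 3.86 and 3.95 units at MG, 2.18, 2.99 and 2.27 at LG, listed at 0 in EL 3 and PL 2, 1.58 and 0.725 in EL 4 and EL 6, 0.407 and 0.241 in PL 3 and PL 6, and 1.73, 2.27 and 12.9 at W2. It passed after scaling as well (-2.17, limma adjusted p = 0.0262). The adhesion genes ITGB7 (-0.70, limma adjusted p = 0.0369) and VCAM1 (-0.84, limma adjusted p = 0.0265) passed as deposited and not after scaling. This is 3 of the 14 lower as deposited, beside 19.3% of all genes, and 1 after scaling, beside 4.36%. CCL28, an epithelial chemokine for antibody-producing cells, had the highest level (181 units) and a value of -0.53, CXCL10 0.32 and CCL21 -0.75, none of which passed.

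**Figure D5:**
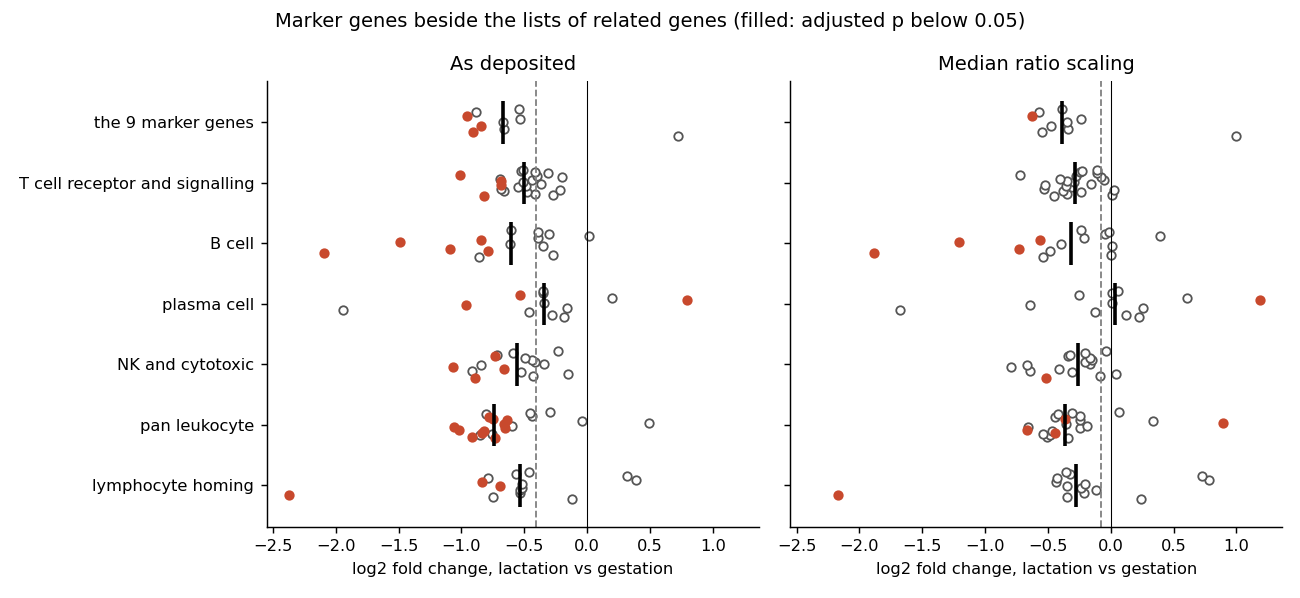
Log2 fold change in lactation vs gestation of the 9 marker genes and of the genes of 6 related lists, as deposited (left) and after median ratio scaling (right), 1 point per gene, filled where the limma adjusted p is below 0.05. Short bars are list medians (-0.67 for the 9 genes at left and -0.39 at right), and dashed lines are the median of all genes (-0.40 and -0.08).

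Markers of other cells moved in the same contrasts. In lactation vs gestation, 3 of 7 fibroblast genes, 4 of 9 macrophage genes, 1 of 6 endothelial genes and 1 of 4 adipocyte genes fell and 1 adipocyte gene rose, while 0 of 8 epithelial and 0 of 6 basal genes passed in limma, beside 19.3% of all genes lower and 1.57% higher. After scaling 1 fibroblast gene, 3 macrophage genes, 0 endothelial and 0 adipocyte genes were lower, and 1 adipocyte, 1 epithelial (EPCAM) and 1 basal gene (CNN1) were higher, beside 4.36% and 3.11% of all genes. Of 6 neutrophil genes, S100A8, S100A9 and S100A12 rose (1.63, 1.50 and 1.85, limma adjusted p = 0.0047, 0.0194 and 0.0199), and S100A8 was listed at 0 outside PL except for 0.266 units in MG 6. The summed level of 7 fibroblast genes was 1562 to 2369 units at MG, 483 to 1114 at PL and 1415 to 2665 at W2, that of 8 macrophage genes without CD14 471 to 529, 138 to 223 and 394 to 480, and that of 6 endothelial genes 143 to 205, 92.3 to 147 and 156 to 167. CD14, the other macrophage gene, was at 9.23, 234 and 298 units at PL and between 3.45 and 9.92 in the other 12 samples. The 6 neutrophil genes summed to 5.58 to 15.1 units at MG, 11.9 to 68.4 at PL and 6.20 to 24.8 at W2, and the 8 epithelial genes to 1429 to 2115, 931 to 2123 and 1594 to 2370. The summed level of the 9 lymphocyte markers was 36.6 to 47.8 units at MG, 11.8 to 22.8 at PL and 26.5 to 37.2 at W2. The part of these other cells in the lymphocyte differences was not tested.

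Likeness to the 9 genes was measured as Pearson r over the 15 samples between a gene's log2 level and the mean of the markers' z scores. Among 12344 annotated genes with a mean of at least 1 unit, the highest included UROD (0.95), MARCH9 (0.94), MAPK7 (0.94), GIMAP8 (0.94), GRIFIN (0.94), BOLA2B (0.93), CSTF1 (0.93), PIGP (0.93) and C14H10orf128 (0.93). The median r over all these genes was 0.60 and 88.2% were above 0, over samples that share stages and fixed totals. After median ratio scaling the median r was 0.10, and BLNK was first (0.90), while GIMAP8, of a family expressed in lymphocytes, was the fifth (0.85) and BOLA2B stood at 0.26.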

How the data were processed

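The table holds 61773 transcripts in 30 mammary samples. Read quality was checked with FastQC, adapters were removed with Trimmomatic, HISAT2 was used for alignment to Sscrofa11.1 and StringTie for assembly and quantification. The authors deposited values called FPKM, kept at 0.5 or more in a stage. Since every column sums to nearly the same total, the deposited FPKM values are relative to each sample's total, as TPM would be. The use of RUVs is named in the study's methods, and whether the values precede it is not given in the sources used here. The study lists reads per sample and refers to raw counts held elsewhere. Neither was used here, so precision comes from the 3 counted samples per stage.

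Of 32726 annotated transcripts, 32396 were matched to RefSeq by accession, and the identifiers of 330 were gene symbols. Transcripts of a gene were summed and analysed as log2(level + 0.5) with limma 3.58.1 in R 4.3.3, the 5 stages in one fit, trended variance and Benjamini-Hochberg adjustment over all 26012 genes and loci. The study's rule was an adjusted p below 0.05 and a log2 fold change of 2 or more in size, and the adjusted p without a fold limit was used beside it. Median ratio scaling used the 2698 transcripts that reached 10 units in each sample. Single genes were tested by exact permutation with numpy 2.4.6 in Python 3.11.15. The fit was tested on simulated data. Named genes were all 9 markers, list genes that passed or were among the 4 most abundant, and the 10 genes most like the markers, and a few of the list genes and of these 10 are not reported here. A few further genes (milk proteins, the scaled ranking, pan-leukocyte genes beside PTPRC) were chosen after their values were seen. The markers and lists were chosen with earlier results of these data known. Same-numbered samples are different sows, as far as the labels say. Sequences were not used here.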

Additional observations from a re-analysis of the deposited data

How the results depend on the processing

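The study's rule called 0 of 9 genes in the 10 pairs of stages, and 2 calls appeared with a pseudocount of 0.1. With no fold limit there were 10 calls on gene sums and 1 on transcripts. Transcripts gave 4 calls with all 6 samples per stage, with or without scaling, and 3 with the near-copies averaged into 1 further sample. The share of all transcripts called at these settings is not given here. The transcript counts therefore describe the settings and are not a result about the markers. Counts at an adjusted p below 0.05, in the order PL vs MG, PL vs LG, W2 vs PL, lactation vs gestation and PL vs the other stages, were 4, 2, 4, 3 and 5. Median ratio scaling and quantile normalization each left 1 gene, LCK, in all 5, beside 4.36% to 8.97% and 4.14% to 9.48% of all genes. The near-copies raised the counts, to 8, 6, 7 and 8 in the first 4 with all 6 samples, beside 49.5%, 43.9%, 54.9% and 50.7% of all genes, and to 7, 5 and 6 in PL vs MG, PL vs LG and lactation vs gestation when averaged, beside 39.0%, 31.3% and 38.8%. All 6 samples with scaling, an alternative chosen after seeing the data, gave 4 in PL vs LG, 2 in W2 vs PL and 5 in lactation vs gestation, beside 22.9%, 26.7% and 23.7%. Fits on the compared stages alone gave 0 in PL vs MG, PL vs LG and W2 vs PL, beside 6.08%, 2.21% and 10.4%. The highest transcript alone gave 2, 0 and 1 in those pairs and 1 in PL vs the other stages, beside 14.4%, 7.19%, 20.0% and 17.9%. With the MG and EL labels exchanged, also chosen after seeing the data, there were 0 in PL vs MG and 0 in lactation vs gestation, beside 3.85% and 0.227% of all genes. In lactation vs gestation CD3E (0.022), CD79A (0.28) and CD79B (0.25) then changed sign. CD79A in PL vs the other stages turned to 0.11 with scaling, 0.24 with quantile normalization and 0.023 with scaling of all 6 samples, and CD4 in W2 vs PL to -0.10 with quantile normalization. The cause of these changes was not tested.

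With the replicate block the counts were 2 in PL vs MG, 0 in PL vs LG, 1 in lactation vs gestation and 2 in PL vs the other stages, and W2 vs PL had 3, beside 10.2%, 1.94%, 4.52%, 15.3% and 28.0% of all genes. As far as the labels say, same-numbered samples share only a number. Their deviations from the stage means had r between -0.118 and 0.135 in 19 pairs, 5 of them above 0.1. In 71 pairs with different numbers r was between -0.102 and 0.185, with 14 above 0.1.

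Leaving out 1 sample gave 2 to 5 genes in PL vs MG (2 without MG 3 or PL 2), 0 to 4 in PL vs LG, 1 to 4 in W2 vs PL, 2 to 4 in lactation vs gestation, 2 to 5 in PL vs the other stages, and 0 by the study's rule on gene sums and on transcripts. The share of all genes called moved as well. In the same order it was 12.2% to 25.5%, 5.71% (without LG 4) to 16.4%, 21.9% to 32.5%, 10.6% to 24.1% and 16.6% to 28.0%. In PL vs LG the count was 0 without LG 4, 4 without PL 6, and 1 without MG 1, MG 3, MG 6, LG 1, LG 3, EL 6, PL 2, PL 3, W2 2, W2 3 or W2 6. In W2 vs PL it was 1 without PL 2, W2 2 or W2 6 and 2 without EL 6, PL 3 or W2 3. In PL vs the other stages it was 2 without MG 3, LG 3, EL 6, PL 2 or W2 6 and 3 without MG 6, LG 1, EL 4, W2 2 or W2 3. LCK passed in all 15 leave-outs of PL vs MG, W2 vs PL, lactation vs gestation and PL vs the other stages. CD79A changed sign without PL 6 in PL vs the other stages and without PL 2 or W2 2 in W2 vs PL, with values of 0.31, 0.20 and 0.10, over ranges of -0.69 to 0.31 and -0.80 to 0.20. Exact permutation tests of lactation against gestation passed unadjusted for 4 to 6 genes, beside 28.4% to 38.6% of all genes.

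Read depth was not used here, and CD79A, CD79B and PTPRC had levels of a few units in 3 samples per stage, with standard errors of 0.50, 0.24 and 1.1 in lactation vs gestation.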
